A study of Mus musculus with 8 samples.

Results

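Tissue factor, encoded by F3, and 4 genes that hold clotting in check or dissolve clots, Tfpi, Thbd, Procr and Plat, were followed in hearts of newborn mice. Genes were found by their symbols: every probe annotated with just F3, Tfpi, Thbd, Procr or Plat was taken, 7 of 28704 probes in all. Through 6 of these probes all 5 genes met a limit of 3 measured arrays per genotype, as did 11804 features in all (genes, or probes without 1 symbol). The set was selected on earlier results of the same arrays, in which F3 stood among the genes with the clearest difference between genotypes, so differences between genotypes are given below as a description, with no test for these 5 genes.

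The tested hearts came from neonatal connexin43 null mice and the controls from neonatal wildtype mice, both C57BL; neither exact age nor the null allele is given in the labels. Connexin43, encoded by Gja1, forms the gap junction channels that join heart muscle cells. Hearts were pooled by 3, and 4 pools of each genotype were labelled with Cy3 and hybridised to 8 arrays, beside a Cy5-labelled reference made once from adult organs of both sexes, among them lung, liver, brain, spleen, kidney, stomach, gonads, aorta and heart. Values are log2 ratios of heart over this reference after subtraction of the array median; a value of 0 therefore means a ratio like that of the median spot, and a ratio does not rank different genes by abundance.

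Blood clotting after injury starts when tissue factor, a membrane protein held outside the bloodstream, meets factor VII of the plasma, and the pair activates factor X, which leads to thrombin and fibrin. Tissue factor pathway inhibitor, from Tfpi, blocks this start. Thrombomodulin, from Thbd, binds thrombin on vessel walls and turns it towards activating protein C, which the endothelial protein C receptor, from Procr, holds in place. Tissue plasminogen activator, from Plat, turns plasminogen into plasmin, which dissolves fibrin. Heart muscle is known as one of the tissues rich in tissue factor.

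The promoter of F3 is shown because F3 had the widest gap between genotypes among these genes. That of Procr is shown because it holds 1 of the same motifs. Both are the 250 bases before the annotated start, from RefSeq on GRCm38.p6, both on the plus strand, 5′ to 3′. F3 lies at chr3:121723287-121723536 and Procr at chr2:155750967-155751216. Capitals mark letters that match the AP-1 motif (TGAGTCA) or the Sp1 motif (GGGCGG) on either strand. The Egr1 motif GCGNGGGCG, which can overlap the Sp1 letters, was searched as well and had 0 matches in either window.
F3: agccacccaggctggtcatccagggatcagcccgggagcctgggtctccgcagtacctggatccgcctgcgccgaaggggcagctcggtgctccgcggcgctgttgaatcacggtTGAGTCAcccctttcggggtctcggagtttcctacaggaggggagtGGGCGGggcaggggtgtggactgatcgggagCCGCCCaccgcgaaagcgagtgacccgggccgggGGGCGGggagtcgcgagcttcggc
Procr: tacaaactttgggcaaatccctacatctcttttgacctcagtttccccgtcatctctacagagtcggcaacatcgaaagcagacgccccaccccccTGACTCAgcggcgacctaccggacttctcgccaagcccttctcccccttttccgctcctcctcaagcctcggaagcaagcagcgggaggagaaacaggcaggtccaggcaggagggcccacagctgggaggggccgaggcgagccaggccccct

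The F3 window held 1 AP-1 match, which begins 135 bases before the start, and 3 Sp1 matches, which begin 89, 58 and 24 bases before it. The Procr window held 1 AP-1 match, 154 bases before the start, and 0 Sp1 matches. Both Tfpi windows in the table held 1 Sp1 match and 0 AP-1 matches. Among all 32851 promoter windows of this length, several of which can belong to 1 gene, 4.46% held the AP-1 letters, 32.7% the Sp1 letters and 4.70% the Egr1 letters, and 0.862% held both AP-1 and Sp1 letters as F3 does. The motifs are those of factors known to act on F3 or Thbd promoters, and the pair was counted because F3 holds it. Nothing is therefore read from how rare the pair is. A match of letters is a description and not a bound site.

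The arrays were checked first. Gja1, the deleted gene, averaged 0.08 ± 0.25 in null hearts and 1.03 ± 0.21 in wildtype hearts (SD, n = 4 each), with no overlap of the genotypes, and the exact two-sided permutation test gave p = 0.0286, the smallest that 70 assignments of 8 arrays allow. Its 1 probe has no known position relative to the deletion here. Wildtype replicate 1 stood apart from the others: it had values at 45.2% of spots, against 62.3% to 83.4% on the other 7 arrays, and its median rank correlation with the other arrays was 0.576, against at least 0.663. It has no value for Thbd, Procr or Plat, so those genes rest on 4 null and 3 wildtype pools.

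F3 had lower values in null hearts. On null replicates 1 to 4 it read -0.59, -0.60, -0.56 and -0.58, against 0.35, 0.02, -0.12 and -0.13 on wildtype replicates 1 to 4. The genotypes did not overlap, and the nearest values were 0.43 apart. Its mean was -0.58 ± 0.019 over null pools and 0.03 ± 0.23 over wildtype pools (SD, n = 4 each), a log2 difference of -0.61 (SE 0.12), which puts null hearts at 65.4% of the wildtype ratio. Wildtype replicate 1, the array with the fewest values, held the highest F3 value; without it the difference was -0.50 (SE 0.09) and every null value still lay below every wildtype value. F3 rests on 1 probe. In whole hearts, fewer cells that express a gene and less of its RNA per cell cannot be told apart, for F3 or for any gene below.

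**Figure D1:**
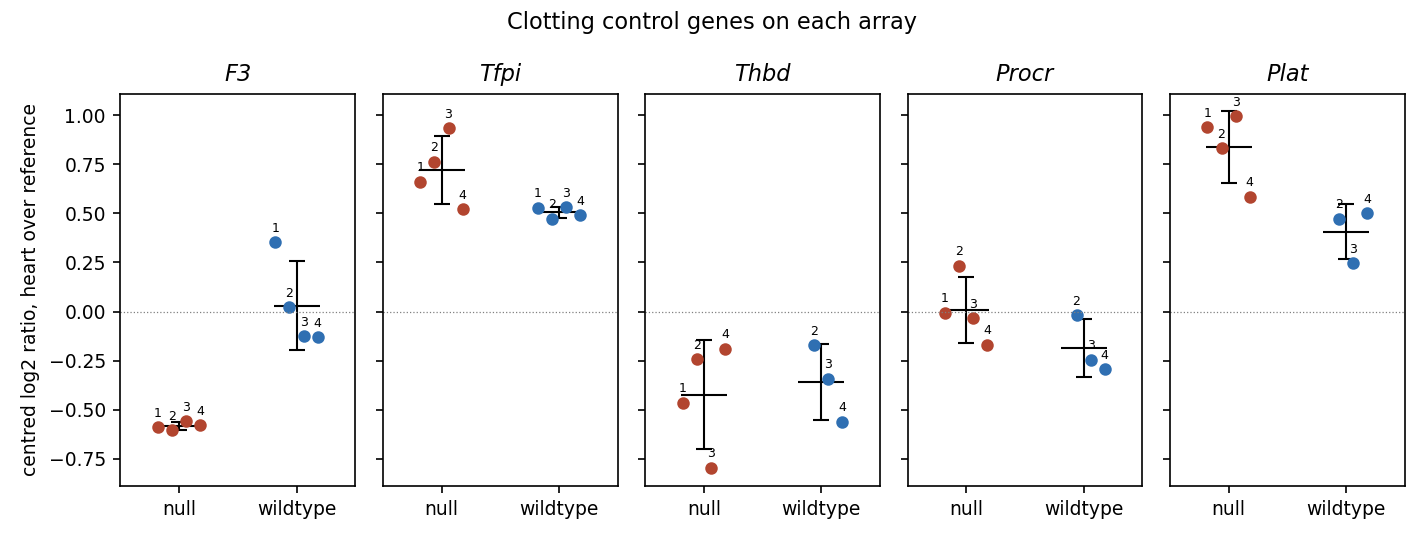
Centred log2 ratio of heart over reference (vertical axis) of F3, Tfpi, Thbd, Procr and Plat on each array, with null pools left and wildtype pools right in each panel; numbers are replicates, and black lines give mean and SD. F3 values of null pools lie within -0.60 to -0.56, all below the wildtype pools, while Plat values of null pools, 0.58 to 0.99, all lie above those of wildtype pools, 0.25 to 0.50.

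The 4 null pools gave nearly the same F3 value. Of 8238 features with values on all 8 arrays, 30 had a smaller SD over the null pools than the 0.019 of F3, and the median was 0.14. F3 entered through a clear difference between genotypes on these same arrays, which a small spread favours, so nothing is read from this count. The wildtype SD of 0.23 was in the ordinary range, with 35.2% of these features above it. The tight null values depended on the scaling of the arrays. As deposited, before centring, the null SD of F3 was 0.13, with values of -0.93 to -0.63, and after quantile normalization it was 0.14, with values of -0.76 to -0.44. The gap between the genotypes was present on every scaling tried: deposited wildtype values were -0.43 to 0.56 and quantile-normalized ones -0.16 to 0.26. Centring within each of 48 blocks of spots gave null values of -0.54 to -0.46 and wildtype values of -0.11 to 0.51.

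**Figure D2:**
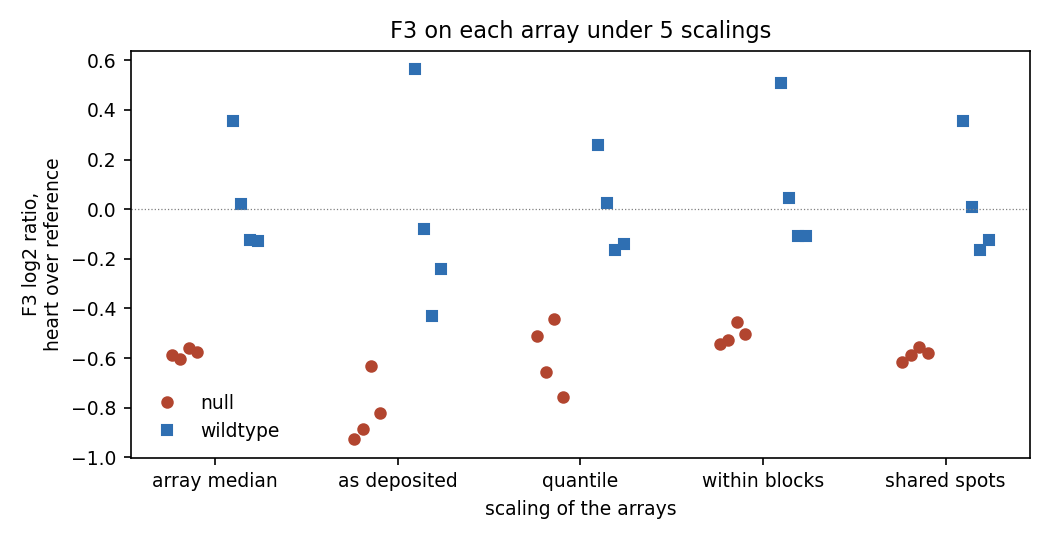
F3 log2 ratio of heart over reference (vertical axis) on each array under 5 scalings of the arrays (horizontal axis), null pools as circles and wildtype pools as squares to their right. Null values lie below wildtype values under all 5, while the spread of the null pools ranges from an SD of 0.019 with array medians to 0.14 with quantile normalization.

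Tfpi, the inhibitor of the tissue factor complex, had higher ratios on average in null hearts, but the groups overlapped. Its value, combined from 2 probes through probe and array effects, read 0.66, 0.76, 0.93 and 0.52 on null replicates 1 to 4. Wildtype replicates 1 to 4 read 0.53, 0.47, 0.53 and 0.49. On null replicate 3 the value of 0.93 was fitted from AW552122 alone, which read 1.35 there. Null replicate 4 lay within the wildtype range, and the other null pools lay above it. The difference was 0.21 (SE 0.11), 0.06 (SE 0.17) without centring of the arrays, and 0.32 (SE 0.16) with a plain mean of the probes. The probes gave unlike levels and a like sign: AW552122 averaged 1.13 in null and 0.92 in wildtype hearts, and AA020100 averaged 0.24 in null and 0.09 in wildtype hearts, with 1 null array missing for the second. Their differences were 0.21 and 0.15.

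Thbd, the thrombin receptor of vessel walls, had nearly equal means. It read -0.46, -0.24, -0.80 and -0.19 on null replicates 1 to 4, against -0.17, -0.34 and -0.56 on wildtype replicates 2 to 4. Of the null values 3 lay within the wildtype range and 1 below it, and the difference was -0.06 (SE 0.17). Its sign turned under quantile normalization (0.01), without null replicate 3 (0.06) and without wildtype replicate 2 (0.03).

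Procr, the receptor that holds protein C, read -0.01, 0.23, -0.03 and -0.17 on null replicates 1 to 4, against -0.02, -0.25 and -0.29 on wildtype replicates 2 to 4. The groups overlapped, although the 2 lowest values were wildtype and the highest was null. The difference was 0.19 (SE 0.13).

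Plat, the plasminogen activator, had higher values in null hearts on the probe that met the limit, AU020998. It read 0.94, 0.83, 0.99 and 0.58 on null replicates 1 to 4, against 0.47, 0.25 and 0.50 on wildtype replicates 2 to 4. The groups did not overlap, although null replicate 4 and wildtype replicate 4 were 0.08 apart. Means were 0.84 ± 0.18 in null hearts (SD, n = 4) and 0.41 ± 0.14 in wildtype hearts (SD, n = 3), a difference of 0.43 (SE 0.14), which puts null hearts at 135% of the wildtype ratio. The other Plat probe, AU020844, fell just outside the limit with 2 arrays per genotype. It read -0.04 and -0.34 in null hearts, against -0.13 and 0.05 in wildtype hearts, a difference of -0.15. Combined over both probes in the same way as Tfpi, as a limit of 2 arrays allows, the Plat difference was 0.31 (SE 0.15). Thbd, Procr and the first Plat probe, with 3 wildtype arrays each, lay just inside the limit.

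**Figure D3:**
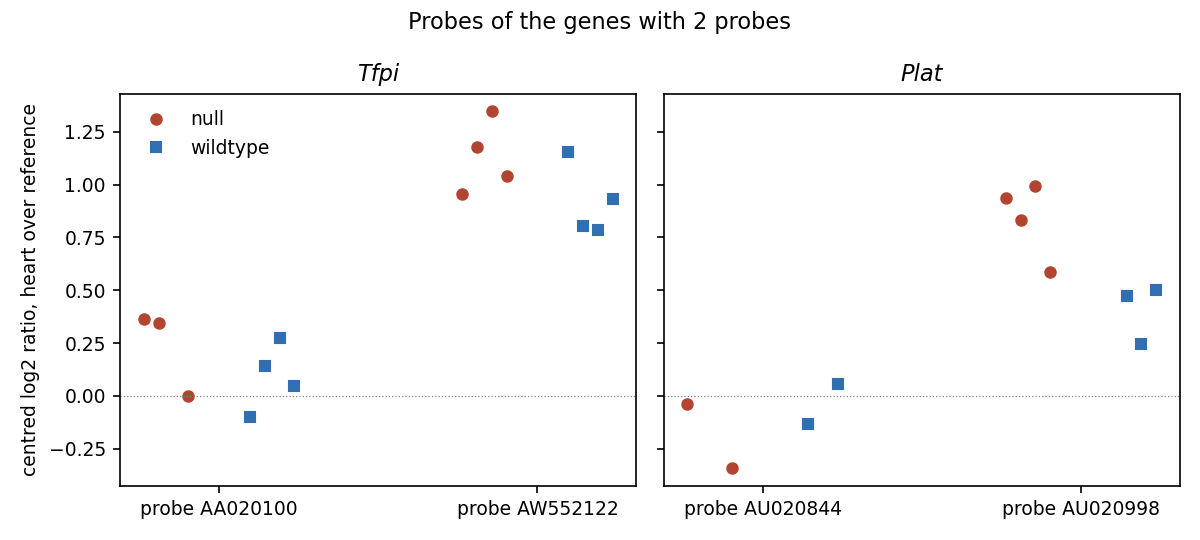
Centred log2 ratio of heart over reference (vertical axis) on each probe (horizontal axis) of Tfpi and of Plat, null pools as circles left and wildtype pools as squares right. The Tfpi probes sit at unlike levels with means of 1.13 and 0.24 in null hearts, and the Plat probe AU020844, with 2 arrays per genotype, lies below AU020998 in both genotypes.

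The members were then set against all features. Groups that did not overlap, with null below wildtype, were found at 5.54% of the 11804 features and at F3 among the 5 members. Null values above all wildtype values were found at 2% of features and at Plat among the members. Since the members were selected on this contrast, nothing is read from these counts. In limma 0% of all features passed an adjusted p of 0.05. Gja1, the deleted gene, did not pass either, with a difference of -0.95 (SE 0.15). A gene that did not pass, here or in the lists below, is therefore not shown to be unchanged. An unadjusted p under 0.05 was reached by 972 features, or 8.23%, of which 248 had higher and 724 lower values in null hearts; without centring of the arrays these were 28 and 1364. The median difference of all features was -0.04 with centring and -0.18 without, and that of F3 was -0.61 and -0.77.

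Levels against the adult reference were a separate question, and the genes were not chosen by level. It asked whether newborn hearts, both genotypes averaged, carry more or less of each transcript relative to the mixed adult tissues than the median spot does. SE and p of a level rest on the same spread within genotypes as the genotype difference. A choice by clear differences favours a small spread, which can make p-values for levels of the members too small. Dyes were not swapped, so dye bias stays in these values. Plat stood at 0.62 (SE 0.07), higher on 7 of 7 arrays, and Tfpi at 0.61 (SE 0.06), higher on 8 of 8 arrays; both passed in limma, with adjusted p of 4.62e-05 and 7.34e-06. Across all features 28.2% passed as higher and 27.4% as lower, so a call in this comparison is common.

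The size of the Tfpi and Plat ratios depended on the probe. Tfpi stood at 1.03 on AW552122 and at 0.16 on AA020100, which alone did not pass in limma (adjusted p = 0.0785). With both of its probes Plat stood at 0.26 (limma adjusted p = 0.0167). Thbd stood lower, at -0.39 (SE 0.08, limma adjusted p = 0.00319), on 7 of 7 arrays, with an adjusted p of 0.0629 in limma on wildtype arrays only. Procr, at -0.09 (SE 0.07), did not pass (limma adjusted p = 0.275), and its 95% interval was -0.24 to 0.06; without centring it stood at -0.29 and passed (limma adjusted p = 0.0131). F3 averaged -0.28 (SE 0.06) over both genotypes and passed in limma (adjusted p = 0.00332), while on wildtype arrays only it stood at 0.03 (limma adjusted p = 0.846).

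The wider clotting system was read from 6 lists with 60 genes, of which 34 had a probe and 20 had enough values. Of these 20 genes 4 had higher and 16 lower values in null hearts, against 4831 higher and 6973 lower among all features, with a median difference of -0.12 against -0.04. In limma 0 of them passed as higher and 0 as lower, and 2, Fgb and Klf4, had an unadjusted p under 0.05. Prothrombin, factors VII, VIII and X, von Willebrand factor and plasminogen are among the 40 genes not measured here.

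Of 16 coagulation factor genes 3 were measured, all made mainly by liver, and 0 passed. The fibrinogen genes Fgb and Fga had differences of -0.71 (SE 0.29, unadjusted p = 0.0350 in limma) and -0.14 (SE 0.23), and F12, which encodes the contact factor XII, -0.22 (SE 0.20). Fgb read -2.98, -3.87 and -2.70 on null replicates 2 to 4, against -2.97, -1.95, -2.47 and -2.49 on wildtype replicates 1 to 4, with overlap at wildtype replicate 1. All 3 genes stood below the reference (limma adjusted p of 3.34e-07 for Fgb), with a median level of -2.27. Liver markers, 5 of 6 measured, averaged -1.51 to -0.87 on null arrays and -1.06 to -0.69 on wildtype arrays, ranges that overlap. Of the 5, Afp alone had a positive difference, 0.32 (SE 0.11), while Alb, Ttr, Apoa1 and Trf had negative ones. The largest of these was that of Trf, -0.85 (SE 0.21). The part of liver markers in the Fgb values was not tested.

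Of 10 anticoagulant genes 3 were measured and 0 passed. Anxa5, which encodes a protein that covers phospholipid surfaces, had 0.23 (SE 0.11), with 1 null pool at 0.88 well above the other 3, Pros1, which encodes the protein C cofactor protein S, -0.07 (SE 0.14), and Proc, which encodes protein C itself, -0.04 (SE 0.20). Anxa5 and Pros1 stood above the reference, at 0.56 and 0.30, and Proc below it, at -0.56, and each passed in limma (adjusted p of 1.84e-05, 0.00426 and 0.000735).

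Of 4 protease-activated receptor genes, whose products signal after cleavage by thrombin and related proteases, 2 were measured and 0 passed. F2r had -0.10 (SE 0.18), with 1 null pool at 0.22 far below the other 3, and F2rl3, the receptor of mouse platelets, -0.27 (SE 0.13). F2rl3 read 0.02, -0.27, -0.55 and -0.30 on null replicates 1 to 4, against 0.01, 0.03, -0.01 and -0.04 on wildtype replicates 1 to 4. The wildtype pools lay close together, and 3 of 4 null pools lay below them. F2r stood above the reference at 0.79 (limma adjusted p = 3.73e-05).

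Of 9 genes of fibrinolysis besides Plat, 3 were measured and 0 passed. Anxa2, whose product binds plasminogen and its activator on cells, had 0.21 (SE 0.12), the urokinase receptor gene Plaur -0.18 (SE 0.12), and Serpinb2, which encodes an inhibitor of plasminogen activators, -0.20 (SE 0.13). Of 11 platelet genes 3 were measured and 0 passed. Pf4 and Ppbp, which encode platelet chemokines, had -0.48 (SE 0.23) and -0.31 (SE 0.25), and the integrin gene Itgb3 -0.02 (SE 0.13). Pf4 read -0.76 to -0.26 on null pools, against -0.38, 0.16 and -0.38 on wildtype replicates 2 to 4 and 0.72 on wildtype replicate 1.

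**Figure D4:**
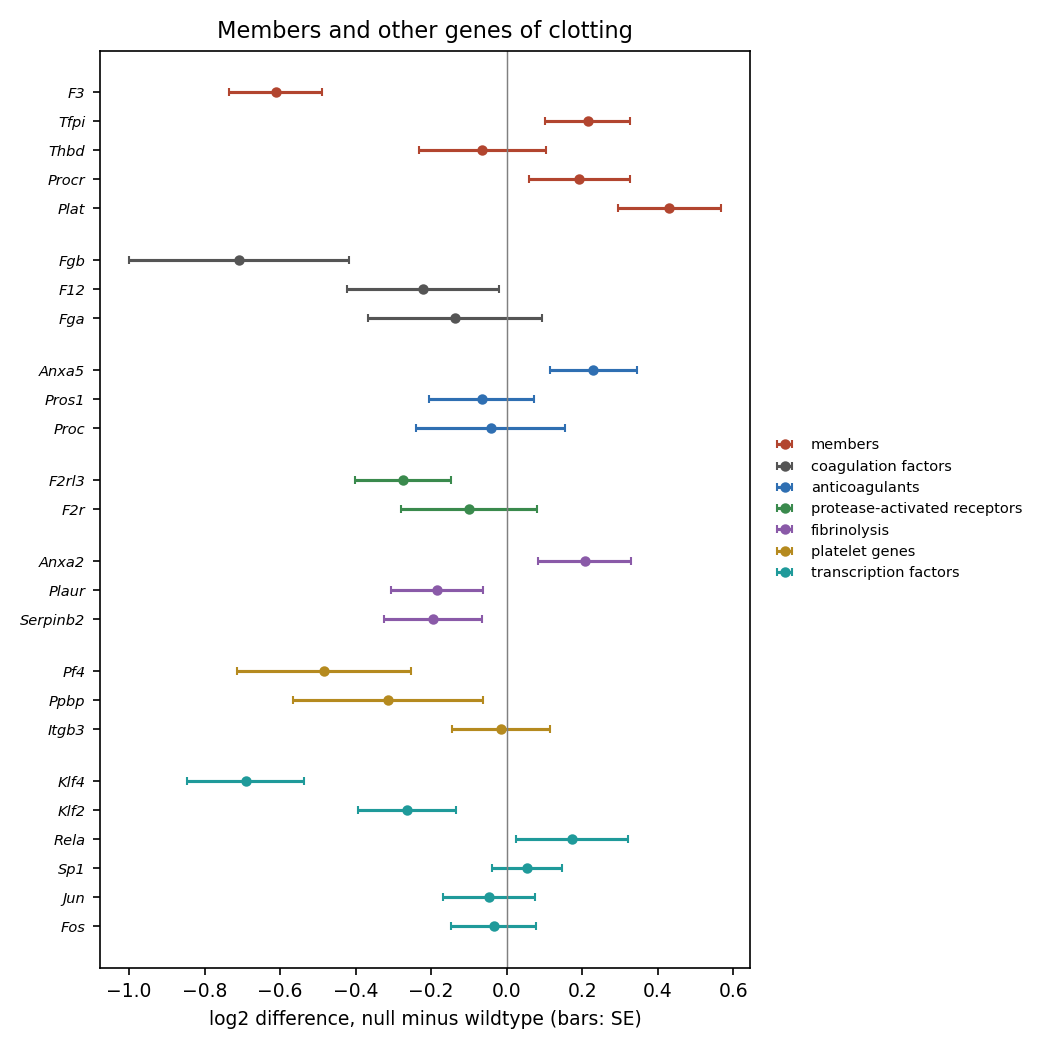
Log2 difference of null minus wildtype (horizontal axis, bars give SE) of the 5 members and of 20 other genes of clotting and its regulators, coloured by list. F3 at -0.61, Fgb at -0.71 and Klf4 at -0.69 lie farthest to the left and Plat at 0.43 farthest to the right, and 16 of the 20 other genes lie below 0.

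Of 10 transcription factors known to act on F3 or Thbd promoters 6 were measured and 0 passed. Klf4, a factor that raises Thbd in endothelium, read -1.24, -0.72, -1.13 and -0.91 on null replicates 1 to 4, against 0.02, -0.35, -0.59 and -0.31 on wildtype replicates 1 to 4. Its groups did not overlap, and the difference was -0.69 (SE 0.16, adjusted p = 0.413 in limma). The related factor Klf2 had -0.26 (SE 0.13), with null values of -0.10 to 0.28 and wildtype values of 0.15 to 0.48 that overlapped. RNA of the measured factors whose motifs are marked above gave smaller differences. The AP-1 genes Fos and Jun had -0.03 (SE 0.11) and -0.05 (SE 0.12), and Sp1 had 0.05 (SE 0.09). Junb and Egr1 were not measured, nor was binding or activity of any factor. Rela, a subunit of NF-kB, had 0.17 (SE 0.15).

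Markers of cells that could supply these transcripts were read as mean log2 ratios over the list genes with values on all arrays. Endothelial markers, 6 of 9 measured and 4 on all arrays, averaged 0.71 to 0.82 on null arrays and 0.38 to 1.02 on wildtype arrays, where the highest was wildtype replicate 1. On the arrays that carry Thbd, Procr and Plat, without that replicate, the wildtype averages were 0.38, 0.56 and 0.63 on replicates 2 to 4, all below the null arrays. Over all arrays 5 of the 6 measured markers had positive differences of null minus wildtype, and 0 of 6 were past the threshold in limma. On those 7 arrays the mean of the endothelial markers and Plat were thus both higher in null hearts. Of the 4 genes in that mean, Emcn alone separated the genotypes there, while Cdh5, Tek and Eng overlapped. Procr also overlapped between genotypes, and Thbd had a difference of -0.06 (SE 0.17). The part of these markers in the Thbd, Procr and Plat values was not tested. Fibroblast markers, 5 of 7 measured, averaged 0.56 to 0.90 on null arrays and 0.28 to 0.87 on wildtype arrays. Of the working heart muscle markers 1 of 8 was measured, Tnnc1, at 1.00 to 1.33 on null arrays and 0.87 to 1.38 on wildtype arrays. Smooth muscle markers, 2 of 5 measured, averaged -0.70 to -0.44 on null arrays and -0.60 to -0.36 on wildtype arrays. The macrophage marker Cd68 read -0.65 to -0.58 on null arrays and -0.86 to 0.02 on wildtype arrays. The epicardial marker Msln, with values on 7 arrays, had a difference of 0.03 (SE 0.19). The ranges of Tnnc1, Cd68 and the fibroblast and smooth muscle means overlapped between genotypes. Those of the endothelial mean did so only through wildtype replicate 1.

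Markers of lung epithelium, 3 of 4 measured and 2 on all arrays, did separate the genotypes, at -3.33 to -2.93 on null arrays and -2.80 to -2.29 on wildtype arrays. Scgb1a1 and Sftpc, which encode secreted proteins of airway and alveolar cells, had differences of -0.59 (SE 0.15) and -0.63 (SE 0.19), and Cbr2, a carbonyl reductase of lung with 3 null arrays measured, had -1.39 (SE 0.24). Lung is also known as a tissue rich in tissue factor, and these markers, like F3, had lower values in null hearts; their part in the F3 values was not tested. They stood far below the reference on all 8 arrays.

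The genes whose pattern over the arrays was most like that of each member were sought among genes with 1 symbol and values on all 8 arrays, 5676 of them for F3. Ddah1, with r = 0.981, Wwc1, with r = 0.958, and Ehd1, with r = 0.957, were most like F3 over 8 arrays, and kept r of 0.956, 0.904 and 0.867 without the 2 arrays farthest from the F3 median. All 3 had lower means in null hearts, by differences of -0.37, -0.56 and -0.58. F3 was chosen with its gap between genotypes known, so genes most like it share that direction by selection. The 2 arrays left out were wildtype replicates 1 and 2, and the gap between genotypes remains in the others. Nothing is therefore read from the shared direction or from the r kept. Mxi1 (r = 0.953), Kif23 (r = 0.928) and Mfap3 (r = 0.926) were most like Tfpi over 8 arrays, and Mfap3 kept an r of 0.289 without the 2 farthest arrays. Over 7 arrays, Taf12, Ctnnb1 and Egflam were most like Thbd (r of 0.975, 0.955 and 0.948). Smad7, Egln3 and Pold4 were most like Procr (r of 0.944, 0.943 and 0.930), and Nono, Asf1b and Sh2b1 most like Plat (r of 0.977, 0.961 and 0.956). Without the 2 farthest arrays these became 0.939, 0.996 and 0.870 for Thbd, 0.890, 0.895 and 0.739 for Procr, and 0.966, 0.906 and 0.908 for Plat. The genes were picked for the highest r among all candidates over few arrays, and all r are given as a description.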

How the data were processed

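The deposited table gives a log ratio of the 2 dyes at each of 28704 spots on 8 arrays, with empty cells at some spots. The deposited values were read as log2, since differences within blocks of 598 rows equalled logs of fractions of whole numbers no larger than 100, to within 1e-09, in 8171 of 31304440 pairs for base 2, 599 for base 10 and 133 for base e. Sources used here name no scanner, background correction, spot filter or scaling. Heart was taken as the numerator because 8 measured muscle genes had a higher median than 10 genes typical of other organs on 8 of 8 arrays (0.54 to 0.92, against -2.86 to -1.69). These genes were chosen after seeing that 1 of 8 heart markers was measured.

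Symbols come from the platform annotation, which can be old. Of 18511 probes with 1 symbol, 18267 were found by gene number in the GRCm38.p6 table, and 0 changed name. Another 937 probes had several symbols, and 9256 are unnamed here. Arrays were centred on their medians, probes measured on at least 3 arrays of each genotype were kept, and several probes of a gene were combined through probe and array effects. Null minus wildtype, and the mean of both genotypes against 0, were fitted in limma 3.58.1 (R 4.3.3, lmFit, eBayes without trend) across 11804 features, with Benjamini-Hochberg adjustment at 0.05. The code was tested on simulated data. Figures used Python 3.11.15, pandas 2.3.3, numpy 2.4.6 and matplotlib 3.10.9. Replicates are separately numbered pools of hearts, so p-values reflect pool-to-pool variation only, which may in part be technical.

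The members and lists were chosen with earlier results of these data known. Named genes are the members, up to 4 genes per list by smallest unadjusted p, and the 3 genes most like each member.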

Additional observations from a re-analysis of the deposited data

Results flagged for a closer look

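Among 61 groups of 4 arrays that were examined for 1 value far from the others, 2 had one, where chance flags about 1 in 20. F2r, the thrombin receptor gene, read 0.22 on null replicate 1, against 0.88 to 0.93 on the other null pools. Anxa5, the annexin gene, read 0.88 on null replicate 4, against 0.57 to 0.62 on the other null pools. None of the 5 clotting control genes had such a value in a group of 4.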

How the results depend on the processing

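The F3 difference between genotypes was negative under all 17 alternatives, from -0.77 without centring to -0.50 without wildtype replicate 1, and 0 features and 0 clotting list genes were called under each alternative run. With the replicate number as a block, which the labels do not tie to a shared litter or day, the F3 difference was -0.61 and that of Plat 0.40; same-numbered arrays correlated at -0.25 to -0.009 in their deviations from the genotype means. With an array left out, differences ranged from 0.14 to 0.28 for Tfpi, -0.17 to 0.06 for Thbd, 0.12 to 0.28 for Procr and 0.35 to 0.52 for Plat. The Tfpi difference was 0.0558 without centring. On wildtype arrays only, 2826 features passed against the reference in place of 6567, F3 stood at 0.0302 and Thbd at -0.36, with fewer arrays in the fit. Tfpi stood at 0.16 on probe AA020100 alone and Procr at -0.29 without centring. Without centring, features higher and lower than the reference numbered 1247 and 4864 in place of 3329 and 3238. Values on all 4 arrays per genotype could not be required for Thbd, Procr and Plat; with 3 or 4 pools per genotype, no value here is more precise than its SE.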
